A study of Mus musculus with 6 samples.

Results

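The genes described here encode the subunits of the oxidative phosphorylation machinery. They were taken from the deposited count table by their symbols (the Nduf, Sdh, Uqcr, Cox4 to Cox8 and Atp5 families of the nucleus, and the mt-Nd, mt-Co, mt-Cytb and mt-Atp genes of mitochondrial DNA), without symbols that carry the pseudogene mark -ps. This gave 102 genes of 55385, 89 in the nuclear and 13 in the mitochondrial genome. The 6 RNA libraries are from PDVC57, a mouse cell line of squamous carcinoma, and 3 are labelled Sox2 KO (knockout) and 3 Sox2 overexpression. The series' design text describes cells low or high in Sox2, a stem cell transcription factor, isolated from grafted tumours, and asks what Sox2 activates in tumour stem cells that acts on neutrophils. No library of unmodified PDVC57 cells is among the 6, so each difference is between both modified states. The labels give no construct, promoter, clone or host for either state, and nothing says that replicates came from separate cultures or animals, so p-values measure the spread between these samples, which may be technical.

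Oxidative phosphorylation moves electrons from NADH (complex I) or succinate (complex II) through complex III and cytochrome c to oxygen at complex IV, and complexes I, III and IV pump protons as they do so. Complex V, the ATP synthase, uses the proton gradient to make ATP. Complex II is encoded wholly in the nucleus. The other complexes combine nuclear subunits, translated in the cytosol and imported, with subunits that mitochondrial DNA encodes and a separate polymerase transcribes.

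The promoters of Ndufa6, Cox8a and Atp5j2 are shown because each gene had 1 of the 2 smallest p-values among the nuclear members that rose in complex I, IV or V, and because each carries a word bound by a factor known from respiratory chain promoters. The capitals mark those words: the palindrome of NRF1 in Ndufa6, CCGGAAG of ETS factors such as GABP in Cox8a (in both places as its reverse complement) and AAGATGGCG of YY1 in Atp5j2. The windows run from 250 bases before to 50 after the RefSeq start site on GRCm38.p6, all on the minus strand, and are chr15:82354242-82354541 for Ndufa6, chr19:7217567-7217866 for Cox8a and chr5:145191492-145191791 for Atp5j2.
Ndufa6: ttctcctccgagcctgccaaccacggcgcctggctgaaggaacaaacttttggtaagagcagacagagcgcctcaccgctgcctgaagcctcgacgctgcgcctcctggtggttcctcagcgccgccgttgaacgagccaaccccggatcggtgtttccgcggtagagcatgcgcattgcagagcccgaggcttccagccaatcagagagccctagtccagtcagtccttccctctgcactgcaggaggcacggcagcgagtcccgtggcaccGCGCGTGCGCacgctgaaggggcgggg
Cox8a: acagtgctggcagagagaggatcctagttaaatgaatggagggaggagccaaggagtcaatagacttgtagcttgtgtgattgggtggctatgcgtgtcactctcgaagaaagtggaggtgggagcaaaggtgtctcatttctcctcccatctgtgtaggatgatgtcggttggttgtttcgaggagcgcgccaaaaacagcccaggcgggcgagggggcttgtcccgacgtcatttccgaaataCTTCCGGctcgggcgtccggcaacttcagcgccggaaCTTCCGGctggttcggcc
Atp5j2: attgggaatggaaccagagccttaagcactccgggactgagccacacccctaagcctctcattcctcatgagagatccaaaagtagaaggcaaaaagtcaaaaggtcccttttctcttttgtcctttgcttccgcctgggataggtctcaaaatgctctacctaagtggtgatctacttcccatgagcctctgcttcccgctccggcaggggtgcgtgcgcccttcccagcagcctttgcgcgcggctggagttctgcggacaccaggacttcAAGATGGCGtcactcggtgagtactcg

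The words begin at position 24 after the start site in Ndufa6, at positions -5 and 33 in Cox8a and at position 24 in Atp5j2. Of the 89 nuclear members, 69 had an entry in the promoter table, and 66 of these were protein-coding and had enough counts to be tested. Searched on both strands, the NRF1 word was in 17 of the 66 (25.8%), against 7.17% of 17492 protein-coding genes. The ETS word was in 16 (24.2%, against 12.9%) and the YY1 word in 7 (10.6%, against 2.14%). The ETS word ends in the AAG with which the YY1 word begins, and the YY1 word in the GCG with which the NRF1 word begins, so matches can overlap. A match is a description of the sequence only. Among the 30 members with a promoter that rose, 6 held the NRF1 word, 5 the ETS word and 5 the YY1 word. Among the 35 that passed in neither direction the numbers were 11, 11 and 2.

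The libraries held 31247976 to 38543221 counts over mouse genes. Sox2 was at 1.08 ± 0.377 CPM (counts scaled to 1e+06 per library, SD, n = 3) with knockout and at 103 ± 24.9 CPM (SD, n = 3) with overexpression. All 12 keratinocyte markers had counts, and their summed level was 2337 to 5644 CPM with knockout and 7667 to 12234 CPM with overexpression. Markers of other cells were high in the knockout libraries. The 10 fibroblast markers summed to 53315 to 81334 CPM there and to 284 to 474 CPM with overexpression, and all 10 fell. The 6 mural cell markers summed to 231 to 326 against 27.9 to 56.5 CPM, and all 6 fell. Smaller sums moved the same way for 7 endothelial markers (30.01 to 119.7 against 12.5 to 19.7 CPM), 10 skeletal muscle markers (11.9 to 39.4 against 3.23 to 6.63 CPM) and 7 adipocyte markers (3.49 to 7.70 against 0.427 to 0.710 CPM, Lep at 0 in all 6 libraries). Those of 10 white blood cell markers overlapped (22.8 to 122 against 14.8 to 33.2 CPM). Their part in the results on the subunits was not tested.

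Nuclear subunit genes were mostly higher with overexpression under the TMM scaling used throughout, and were not under scaling to ribosomal protein genes or keratinocyte markers. Of the 89, 81 had enough counts to be tested, 35 of these rose and 3 fell (edgeR quasi-likelihood test, Benjamini-Hochberg adjusted p under 0.05 over 18504 genes), and 43 did not pass, while scaling the libraries to cytosolic ribosomal protein genes turned the split to 1 higher and 9 lower, and scaling to keratinocyte markers to 0 higher and 25 lower. Over all tested genes 31.6% changed, 13.6% upward and 18.0% downward. With the ribosomal scaling 2.4% of all genes were higher and 33.6% lower, and with the keratinocyte scaling 1.29% and 71.0%. The fitted change was above 0 for 77 of the 81 (49.2% of all genes), with a median log2 fold change of 0.56, against -0.016 over all tested genes. Under TMM both reference sets were higher with overexpression themselves. Of 82 ribosomal protein genes 50 rose and 3 fell (median 0.70), and of 12 keratinocyte markers 7 rose and 0 fell (median 1.27). Scaling to either set therefore lowers the other genes. A scaling moves every gene by about the same amount: the ribosomal scaling put the median of all genes at -0.656 and the keratinocyte scaling at -1.525. The nuclear members' median lay above that of all genes by 0.58 on the log2 scale as reported, by 0.51 with the ribosomal and by 0.60 with the keratinocyte scaling.

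The size of this shift depended on 1 library. Summed over the nuclear members, the level was 4956, 5175 and 4832 CPM in knockout replicates 1, 2 and 3, and 5972, 9487 and 6284 CPM in overexpression replicates 1, 2 and 3. Every overexpression sum lay above every knockout sum, and replicate 2 stood well above the other overexpression libraries. It held the highest value of all 6 libraries for 74 of the 81 tested nuclear members. Without it the median log2 fold change was 0.34 (-0.023 over all genes), and 36 members rose and 3 fell, when 13.2% of all genes rose. Overexpression replicates 1 and 3 both lay above all knockout libraries for 60 of the 81 members, as they did for 29.7% of all tested genes. With all 3 overexpression libraries the count was 59, against 24.4%. The count of members that rose was more sensitive to the knockout group: it was 10, 13 and 7 without knockout replicate 1, 2 and 3, when 9.2%, 7.5% and 8.45% of all genes rose. The median hardly moved in these fits, at 0.558, 0.621 and 0.549 (0.562 with all libraries). Fitted changes stayed above 0 for 77, 77 and 76 of the 81, so calls were lost more than sizes. The 7 members called without knockout replicate 3 rose whichever of the 6 libraries was left out: Ndufa4, Ndufa6, Ndufa7, Ndufa11, Ndufb9, Ndufb11 and Ndufc1. All are named for complex I, as were 38 of the 81 tested members. The share of all genes that rose in each of these 6 fits was not counted.

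**Figure D1:**
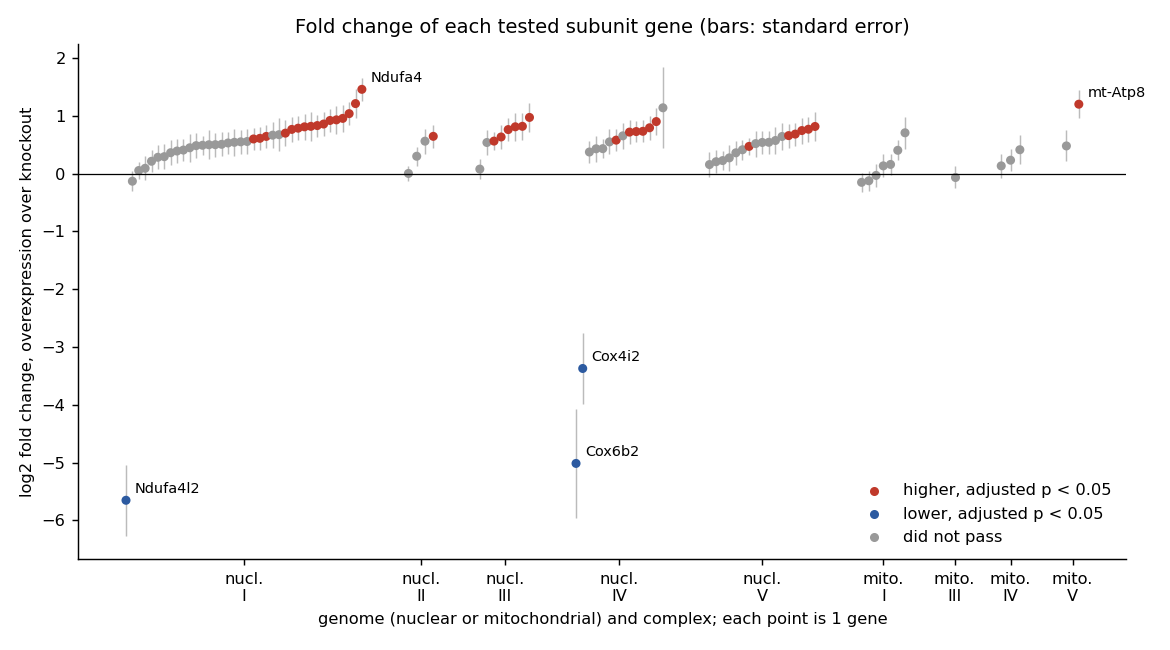
Log2 fold change (vertical axis, overexpression over knockout) of each tested subunit gene, ordered within complex and genome along the horizontal axis, with bars of 1 standard error and colours for the edgeR call. Most nuclear points lie between 0 and 1, the mitochondrial points run from -0.15 to 0.71 apart from mt-Atp8 at 1.201, and Ndufa4l2, Cox4i2 and Cox6b2 lie far below. Scaling to cytosolic ribosomal protein genes would lower all points, with the nuclear median at -0.149, and scaling to keratinocyte markers more, with it at -0.929.

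**Figure D2:**
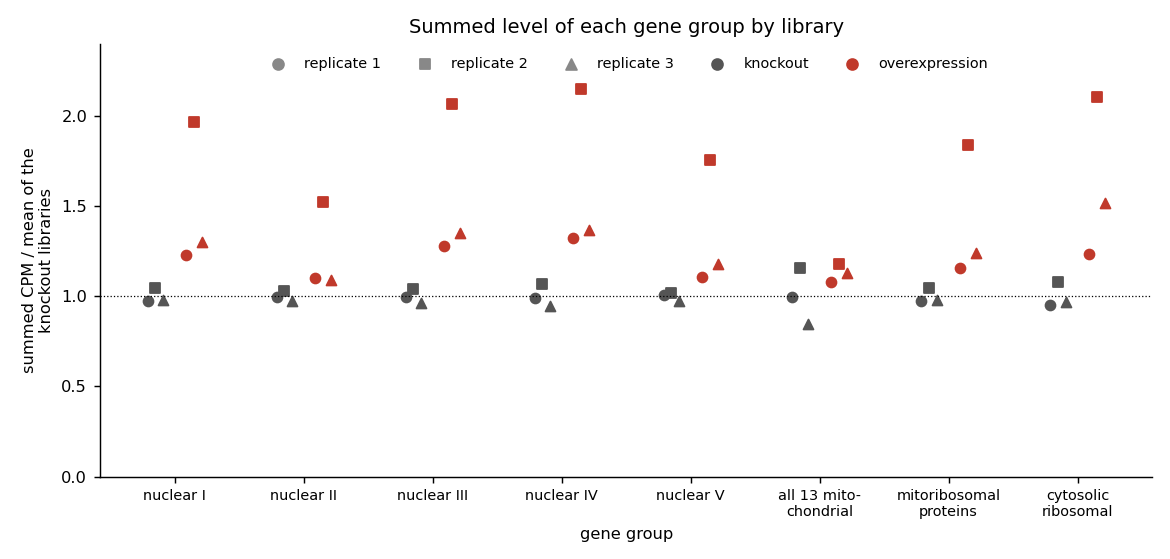
Summed CPM (TMM scaling; scaling to cytosolic ribosomal protein genes or keratinocyte markers lowers the overexpression points) of each gene group in each library, divided by the mean of the 3 knockout libraries. Overexpression replicate 2 (red squares) stands highest in all 5 nuclear complexes and in both ribosomal protein groups, while the 13 mitochondrial genes reach 20141 CPM there against 19726 CPM in knockout replicate 2.

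Complex I takes electrons from NADH. Its 40 nuclear members are counted by symbol, and so include Ndufa4, Ndufa4l2 and the processed pseudogenes Ndufa11b, Ndufs6b and Ndufb4c. Of the 40, 38 were tested, 16 rose (42.1%, against 13.6% of all tested genes) and 1 fell (Ndufa4l2). Core subunits, those that carry out electron transfer and proton pumping and have bacterial counterparts, passed upward in 2 of 7 cases (Ndufs3 and Ndufs7). The other tested members, with Ndufa4, Ndufa4l2 and Ndufb4c among them, did so in 14 of 31, a difference that was not tested. Fitted changes were above 0 in all 7 core subunits and in 29 of the 31 others, with median log2 fold changes of 0.50 and 0.60. The median longest annotated transcript was 1661 bp for the core and 918 bp for the others. Ndufs1, the largest core subunit, had 71.9, 62.3 and 65.1 CPM with knockout and 73.1, 57.9 and 75.8 CPM with overexpression, so the groups overlapped. Ndufa6, an accessory subunit (chromosome 15, 82350140 to 82354322, minus strand, GRCm38), had 24.0, 28.5 and 22.1 CPM with knockout and 44.5, 64.4 and 44.2 CPM with overexpression. It rose by 1.04 on the log2 scale (standard error 0.20, adjusted p = 0.00409, edgeR), and the groups did not overlap. Ndufa1, a small membrane subunit, was the one nuclear member besides the 3 that fell with a fitted change below 0 (-0.13, adjusted p = 0.592, edgeR). The complex had 7 to 9 risers when 1 knockout library was left out.

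Ndufa4 and its paralogue Ndufa4l2 moved apart. NDUFA4 carries a complex I name and is now placed in complex IV, and Ndufa4l2 is known as a gene induced by hypoxia and expressed in pericytes. Ndufa4 (chromosome 6, 11900292 to 11907497, minus strand) had 34.6, 34.4 and 32.1 CPM in knockout replicates 1, 2 and 3 and 83.3, 121 and 73.3 CPM in overexpression replicates 1, 2 and 3. The knockout libraries were close together and all overexpression libraries lay far above them, which made it the member with the highest called rise (2.75-fold, log2 fold change 1.46, standard error 0.20, adjusted p = 0.000735, edgeR). Ndufa4l2 (chromosome 10, 127514967 to 127517154, plus strand) had 176, 458 and 795 counts with knockout, or 5.16, 15.1 and 21.8 CPM, and 5, 11 and 12 counts with overexpression, or 0.153, 0.372 and 0.304 CPM. It fell 50.3-fold (log2 fold change -5.65, standard error 0.62, adjusted p = 0.000190, edgeR). Its exons overlap those of Shmt2 on the other strand. Per transcript length, Ndufa4l2 made up 15.6%, 35.3% and 45.7% of the pair's level in the knockout libraries and 0.226%, 0.378% and 0.510% in the overexpression libraries. The order of the knockout libraries in Ndufa4l2 was also that of the summed endothelial (30.01, 52.7 and 119.7 CPM), white blood cell (22.8, 41.004 and 122 CPM), skeletal muscle and adipocyte markers, and not that of the mural markers (326, 231 and 285 CPM) or of the fibroblast markers (53315, 81334 and 76455 CPM). The other nuclear members that fell ran in other orders over knockout replicates 1, 2 and 3. Cox4i2 had 1.06, 0.761 and 0.411 CPM, and Cox6b2 had 0.381, 1.12 and 0.767 CPM, the order of the fibroblast markers. An order of 3 libraries is a description only, and the part of these cell types in the result was not tested.

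Complex II oxidizes succinate and also works in the citric acid cycle. Of its 4 genes, Sdhc, a membrane anchor subunit, rose from 62.6, 66.1 and 58.6 CPM to 83.7, 129.9 and 79.4 CPM (log2 fold change 0.65, standard error 0.20, adjusted p = 0.0408, edgeR). The call was lost without any one of the knockout libraries. Sdha, the flavoprotein subunit that binds succinate, had 132, 137 and 130.3 CPM with knockout and 129, 143 and 128 CPM with overexpression, and its log2 fold change was 0.003 (standard error 0.13). Sdhb and Sdhd did not pass.

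Complex III passes electrons from ubiquinol to cytochrome c. It had the highest share of risers, 6 of its 8 nuclear members, when 13.6% of all tested genes rose. In 7 of the 8 the overexpression group was wholly higher than the knockout group, as in 24.4% of all tested genes. Uqcr10, a small accessory subunit, had 27.3, 23.5 and 23.7 CPM with knockout and 39.7, 69.9 and 36.8 CPM with overexpression (log2 fold change 0.97, standard error 0.25, adjusted p = 0.0177, edgeR). Uqcrfs1, which encodes the Rieske iron-sulphur protein, had 44.6, 42.9 and 40.5 CPM against 57.9, 95.1 and 64.3 CPM (log2 fold change 0.76). Both lost the call without knockout replicate 2 or 3. Uqcrb was the member without separated groups (log2 fold change 0.078). Without knockout replicate 1, 2 or 3 the complex had 2, 1 and 0 risers.

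Complex IV, cytochrome c oxidase, reduces oxygen. Of its 19 nuclear members 14 were tested, 6 rose and 2 fell (42.9% and 14.3%, against 13.6% and 18.0% of all tested genes). The 2 that fell were paralogues of widely expressed subunits. Cox4i1 (chromosome 8, 120668222 to 120674207, plus strand), the common form of subunit 4, had 235, 243 and 225 CPM with knockout and 339, 609 and 365 CPM with overexpression. It rose by 0.90 on the log2 scale (standard error 0.23, adjusted p = 0.0184, edgeR), and its exons overlap those of Emc8 on the other strand. Cox8a, the common form of subunit 8, had 90.8, 97.6 and 91.2 CPM against 134, 197 and 132 CPM (log2 fold change 0.73, standard error 0.18, adjusted p = 0.0170, edgeR). Both lost the call when any 1 knockout library was left out, with adjusted p-values of at most 0.0568 and 0.0541 over the alternatives. The complex then had 0, 3 and 0 risers without knockout replicate 1, 2 and 3.

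Cox4i2, the form of subunit 4 known from lung, pericytes and low oxygen, had 36, 23 and 15 counts with knockout and 3, 1 and 3 with overexpression. Cox6b2, known as the testis form of subunit 6b, had 13, 34 and 28 counts with knockout and 2, 0 and 0 with overexpression. Both had at most 3 counts in each overexpression library and did not overlap between groups. From the summed counts of each group, Cox4i2 was 10.7-fold higher with knockout (74 against 7 counts, 95% exact interval 4.93 to 27.5 for counting error only, adjusted p = 0.00342, edgeR). Cox6b2 was 37.9-fold higher (75 against 2 counts, interval 10.1 to 319, adjusted p = 0.00382, edgeR). Both genes were minor forms everywhere. Cox4i2 made up at most 0.466% of the Cox4 pair per transcript length in any library, and Cox6b2 at most 1.87% of the Cox6b pair. Ndufa4l2, Cox4i2 and Cox6b2 fell in every fit that left out 1 library. As given above, all 10 fibroblast and all 6 mural markers fell in the same libraries.

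**Figure D3:**
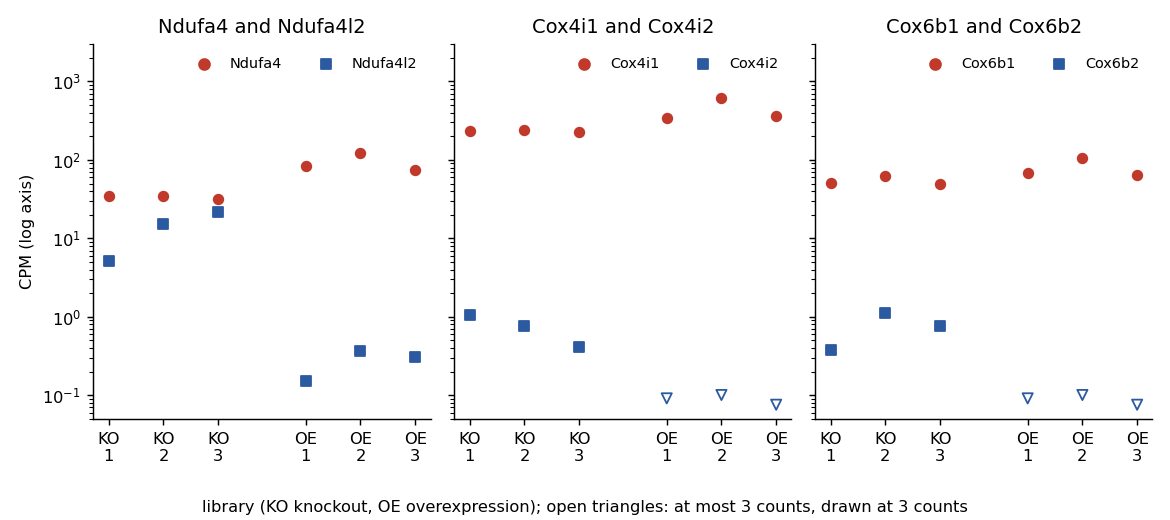
CPM on a log axis of 3 paralogue pairs in each library, with open triangles at the level of 3 counts where a gene had at most 3. The common forms Ndufa4, Cox4i1 and Cox6b1 (circles) sit higher with overexpression in each library, and Ndufa4l2, Cox4i2 and Cox6b2 (squares, triangles) sit far lower. Cox6b1 did not pass (log2 fold change 0.55, adjusted p = 0.0873, edgeR). Its groups lay close, with 62.3 CPM in knockout replicate 2 and 63.8 CPM in overexpression replicate 3.

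Other tissue forms were near the floor. The muscle form Cox6a2 had 2, 1 and 16 counts with knockout and 3, 0 and 3 with overexpression, and Cox8b had at most 3 counts in any library. Neither was tested. Cox7a1, the muscle form of subunit 7a, had 3, 14 and 3 counts with knockout and 18, 14 and 14 with overexpression and did not pass (adjusted p = 0.248, edgeR), but passed without knockout replicate 2 (adjusted p = 0.0361, within a range of 0.0361 to 0.479 over the alternatives). The assembly-linked Cox7a2l made up 63.2% to 68.7% of the Cox7a level with knockout and 63.6% to 72.1% with overexpression, so the makeup overlapped while Cox7a2 and Cox7a2l both rose (log2 fold changes 0.72 and 0.79). The 8 nuclear members that were not tested are Cox6a2 and Cox8b with Cox7b2, Cox8c, a second gene ID of Atp5o, and Cox6c2, Ndufa11b and Ndufs6b, which are annotated as processed pseudogenes although their symbols lack the mark. Ndufb4c, a further such pseudogene, was tested and did not pass.

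Complex V makes ATP. Of its 18 nuclear members 17 were tested, all 17 had fitted changes above 0 (49.2% of all tested genes), and 6 rose (35.3%, against 13.6%). Atp5j2, subunit f of the membrane part, had 100.2, 107 and 102 CPM with knockout and 148, 240.0 and 139 CPM with overexpression (log2 fold change 0.77, standard error 0.22, adjusted p = 0.0270, edgeR). The catalytic subunit gene Atp5b had a log2 fold change of 0.36 and did not pass (adjusted p = 0.229, edgeR). The genes Atp5g1, Atp5g2 and Atp5g3 encode the same mature ring subunit c. Atp5g1 rose from 43.9, 46.9 and 40.7 to 60.03, 92.3 and 58.8 CPM (log2 fold change 0.68) and Atp5g2 by 0.82 on the log2 scale, while Atp5g3 did not pass (0.23, adjusted p = 0.328, edgeR). Per length of the longest transcript, Atp5g3 made up 87.1% to 89.03% of the ring messages with knockout and 82.3% to 84.5% with overexpression, without overlap. These lengths were 4715, 753 and 862 bp for Atp5g1, Atp5g2 and Atp5g3, against 4912, 1675 and 2181 bp of union exons. The share of Atp5g3 therefore depends on the length chosen. All 6 calls of the complex were lost without any one of the knockout libraries, and that of Atp5g2 also without overexpression replicate 2 or 3. Atpif1, the inhibitor that binds the ATP synthase, lies outside the symbol families and had 54.5, 61.3 and 52.4 CPM against 81.8, 131 and 83.8 CPM (log2 fold change 0.82, adjusted p = 0.0158, edgeR). It lost the call without knockout replicate 3.

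Of the 13 mitochondrially encoded genes, 1 rose (mt-Atp8), 0 fell and 12 did not pass (edgeR), where 3 were higher and 0 lower at an unadjusted p under 0.05, and DESeq2 called 2 higher and 0 lower. Over all 18504 genes 13.6% rose and 18.0% fell by edgeR. At that unadjusted p 3696 were higher and 4116 lower, and DESeq2 called 15.9% higher and 18.7% lower. With the ribosomal scaling 0 were higher and 2 lower, and with the keratinocyte scaling 0 and 11. Their median log2 fold change was 0.16, which lay 0.175 above that of all tested genes, and 0.18 and 0.233 above it with the ribosomal and keratinocyte scalings. Summed, they gave 17009, 19726 and 14454 CPM with knockout and 18452, 20141 and 19295 CPM with overexpression, so the groups overlapped. They took 1.47% to 1.89% of all counts with knockout and 1.85% to 1.98% with overexpression, against 0.492% to 0.511% and 0.626% to 0.872% for the nuclear members.

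The balance of both genomes can be read within a library, where scaling cancels. Mitochondrial counts were 3.43, 3.81 and 2.99 times the nuclear members' counts with knockout and 3.09, 2.12 and 3.07 times with overexpression. The groups overlapped, since knockout replicate 3 lay below overexpression replicates 1 and 3, and the lowest value was that of overexpression replicate 2. Per transcript length the ratios were 4.26, 4.66 and 3.71 with knockout and 3.80, 2.77 and 3.71 with overexpression. In bulk RNA, fewer cells of a type and less RNA per cell cannot be told apart.

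By gene, mt-Atp8 (chromosome M, 7766 to 7969, plus strand), a small subunit of complex V, had 51.0, 65.2 and 48.3 CPM with knockout and 148, 147 and 83.9 CPM with overexpression. It rose 2.30-fold (log2 fold change 1.201, standard error 0.24, adjusted p = 0.00523, edgeR) and passed in each fit that left out 1 library. It shares a message with mt-Atp6, which it overlaps, and mt-Atp6 did not pass (1678, 1963 and 1417 CPM against 1895, 3314 and 1841 CPM, log2 fold change 0.48, adjusted p = 0.207, edgeR). The most abundant, mt-Co1, the core of complex IV, had 4940, 5706 and 4374 CPM with knockout and 5530, 4799 and 6153 CPM with overexpression, and its groups overlapped (log2 fold change 0.13, standard error 0.20). Of the complex I genes, mt-Nd3 (0.71, adjusted p = 0.0863, edgeR) and mt-Nd4l (0.40, adjusted p = 0.112, edgeR) had groups that did not overlap and did not pass. With mt-Atp8, the overexpression group was wholly higher in 3 of the 13 (23.1%), near the 24.4% of all tested genes. The genes mt-Nd1, mt-Nd2, mt-Nd4, mt-Nd5 and mt-Nd6 lay between -0.15 and 0.16. The value of mt-Nd6, the one subunit gene on the other strand of mitochondrial DNA, was -0.15. The genes mt-Co2 (0.23), mt-Co3 (0.41) and mt-Cytb (-0.057) did not pass either.

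Transcript length moved with these values. The median longest annotated transcript of tested nuclear members was 1001 bp, against 3055 bp over all tested genes. Over 6 equal bins of all tested protein-coding genes by length, the median log2 fold change went from 0.34 in the shortest (102 to 1819 bp, where 24.2% rose) to -0.17 in the longest (where 9.0% rose). The 62 nuclear members in the shortest bin had a median of 0.62, and 29 of them rose. In each of the 2 longest bins the nuclear members, 3 and 1 in number, had a median of 0.542, though a longest annotated transcript can hold retained introns. With a smooth length trend removed from each library, an alternative chosen after seeing the data, 31 nuclear members rose and 3 fell, 30 of the 31 being among the 35. Over all genes 14.6% then rose and 17.9% fell. The nuclear median was 0.48 and that of all genes 0.014. Messages for cytosolic ribosomal proteins, also short and abundant, had a median of 0.70, with 50 of 82 higher and 3 lower, and 14 to 69 higher when 1 library was left out. What part length has in the members' rise was not tested further.

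The level in overexpression replicate 2 divided by the mean of the other overexpression libraries had a median of 1.37 over the shortest bin of protein-coding genes and 0.841 over the longest. Over the nuclear members the median was 1.56, against 1.04 over all tested genes. Among the mitochondrial genes the ratio was 1.99 for mt-Nd3, 1.77 for mt-Atp6, 1.65 for mt-Co3 and 1.27 for mt-Atp8. It was 0.822 for mt-Co1, 0.832 for mt-Cytb, 0.850 for mt-Nd4 and 0.896 for mt-Nd5, the 4 longest. The short mt-Nd4l, which shares a message with mt-Nd4, had 0.792. Mitochondrial genes thus lay on both sides of 1 within this library. The nuclear members with the longest annotated transcripts, which can hold retained introns, had ratios of 1.58 (Atp5l), 1.55 (Atp5g1), 1.74 (Ndufb7) and 1.59 (Ndufb2). Whether messages of that length were present was not tested. Ndufs1 (0.779) and Atp5s (0.957) were the nuclear members at 1 CPM or more with a ratio below 1.

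**Figure D4:**
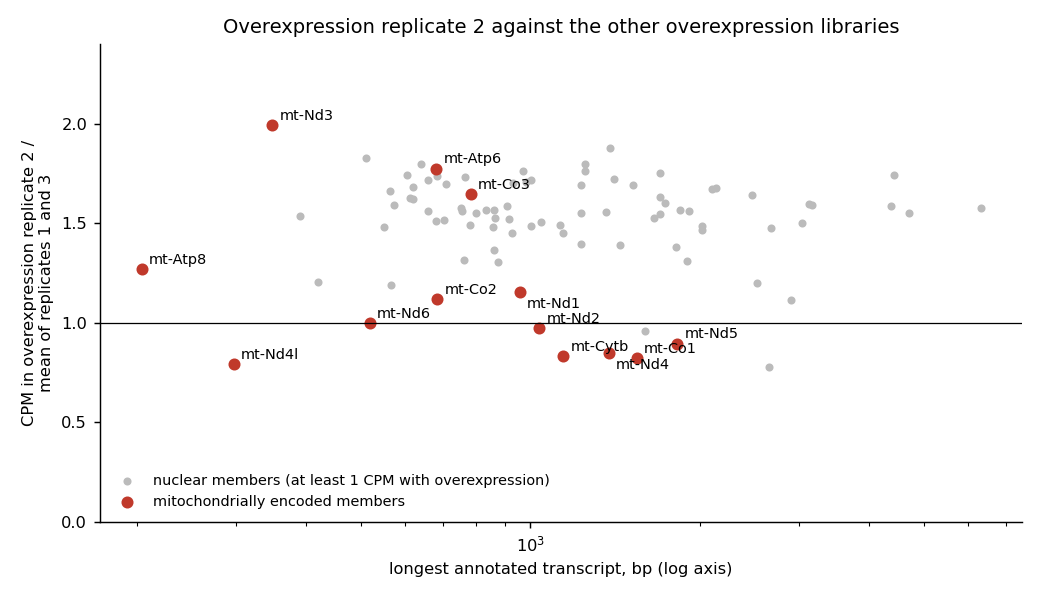
Ratio of overexpression replicate 2 to the mean of overexpression replicates 1 and 3 (vertical axis) against transcript length on a log axis, for nuclear (grey) and mitochondrial members (red). Most nuclear members lie near 1.56, and the mitochondrial genes run from 1.99 for mt-Nd3 to 0.792 for mt-Nd4l.

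**Figure D5:**
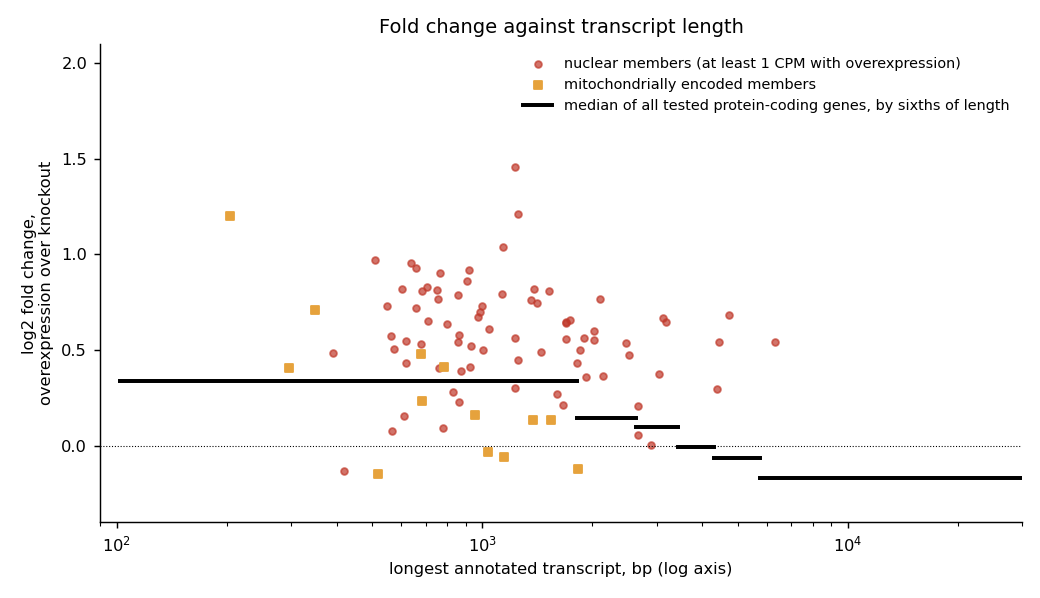
Log2 fold change against transcript length on a log axis for nuclear (circles) and mitochondrial members (squares), with black lines for the median of all tested protein-coding genes in 6 length bins. The lines step down from 0.34 to -0.17, and most nuclear members lie above the line of their bin.

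Other genes of the pathway were read from lists written for this comparison. A list of 11 genes outside the symbol families held carriers and enzymes around the complexes, with Cyc1 and Ndufab1. Of the 11, 2 rose (18.2%, near the 13.6% of all tested genes) and 0 fell (edgeR). At an unadjusted p under 0.05, 3 were higher and 0 lower, against 3696 and 4116 of 18504 genes. DESeq2 called 2 and 0, against 15.9% and 18.7% of all genes. Cyc1, the cytochrome of complex III, rose (82.9, 84.0 and 81.7 CPM against 104, 180.4 and 112 CPM, log2 fold change 0.67, adjusted p = 0.0425, edgeR). Its symbol kept it out of the count of complex III above. Etfdh, which passes electrons from fatty acid oxidation, rose too (0.46, adjusted p = 0.0286, edgeR). Without any one of the knockout libraries 0 genes of the list were called. The ADP/ATP carriers Slc25a4 and Slc25a5 had values of -0.21 and 0.034 and did not pass.

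Of 48 assembly factors, which build the complexes without staying in them, 8 rose (16.7%, near the 13.6% of all tested genes) and 1 fell, with a median of 0.22. Without any one of the knockout libraries 5 rose, when 7.5% to 9.2% of all genes did. The smallest p-value was that of Acad9, a complex I assembly factor (25.4, 29.3 and 30.9 CPM against 48.0, 57.5 and 53.9 CPM, log2 fold change 0.90, standard error 0.15, adjusted p = 0.00215, edgeR), which passed whichever library was left out. The one that fell was Ttc19 of complex III (-0.57, adjusted p = 0.0372, edgeR). It missed the threshold in 5 of those 6 fits, all but that without knockout replicate 3. Of 78 mitochondrial ribosomal proteins, which translate the 13 mitochondrial messages, 18 rose (23.1%, against 13.6% of all tested genes) and 0 fell (edgeR). At an unadjusted p under 0.05 the numbers were 39 and 0, and by DESeq2 27 and 0. Their median was 0.51. Between 2 and 34 rose when 1 library was left out. Mrpl44 had the smallest p-value (log2 fold change 1.06, adjusted p = 0.00409, edgeR).

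Genes that copy and transcribe mitochondrial DNA, Tfam among them, did not pass in either direction (0 of 22 by edgeR and by DESeq2, with 2 higher and 1 lower at an unadjusted p under 0.05), with a median of 0.038. Of 13 tested regulators of mitochondrial biogenesis, 1 rose and 4 fell (7.69% and 30.8%, against 13.6% and 18.0% of all tested genes). The nuclear receptor gene Esrra had 47.4, 44.0 and 49.9 CPM with knockout and 59.7, 79.8 and 61.3 CPM with overexpression (log2 fold change 0.51, adjusted p = 0.0406, edgeR), and lost the call without any one of the knockout libraries or overexpression replicate 3. The coactivator genes Ppargc1b (1.08, 1.75 and 1.59 against 0.305, 0.304 and 0.531 CPM) and Pprc1 (96.5, 90.6 and 92.3 against 65.0, 66.6 and 61.5 CPM) fell, with log2 fold changes of -1.93 and -0.53, as did Myc (-0.60, adjusted p = 0.0447, edgeR) and the AMP kinase subunit gene Prkaa2, whose 20, 38 and 17 counts with knockout met 0, 0 and 1 with overexpression. Without knockout replicate 2 or 3, 2 of the list fell, when 14.4% and 15.3% of all genes did. Ppargc1a, Nrf1, Gabpa and Yy1 did not pass.

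Fuel entry genes were mixed. In the citric acid cycle 4 of 14 rose (Suclg2, Idh2, Idh3g and Fh1) and 0 fell (edgeR). The risers were 28.6% of the list, against 13.6% of all tested genes. At an unadjusted p under 0.05 the numbers were 6 and 0, and by DESeq2 6 and 0. When 1 library was left out the number that rose was between 1 and 6. Of 13 genes at the entry of pyruvate, 5 rose (2 to 5 when 1 library was left out) and 1 fell. These were 38.5% and 7.69% of the list, against 13.6% and 18.0% of all tested genes. Among the risers were Pdhb and Pdha1, subunits of pyruvate dehydrogenase (log2 fold changes 0.63 and 0.41), and Pdk1 and Pdk3, kinases that inhibit it. Pdk1 had 41.8, 42.2 and 45.1 CPM with knockout and 101, 120 and 107 CPM with overexpression, a rise of 1.34 on the log2 scale (standard error 0.14, adjusted p = 0.000137, edgeR). A further kinase gene, Pdk4, fell from 2.64, 3.57 and 1.48 CPM to 0.122, 0.372 and 0.304 CPM (log2 fold change -3.25, adjusted p = 0.00179, edgeR). Pdk1, Pdk4 and Suclg2 passed in each fit that left out 1 library.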

How the data were processed

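RNA was measured in 6 libraries. The values the authors deposited are raw gene counts: whole numbers, not normalized, in 1 column per library, matched through the sample descriptions. The submitters' processing notes name kallisto 0.44.0 and mm10 with no role. The annotation, the step to whole numbers per gene and the strand setting are not given in the sources used here, so reads of overlapping genes, or of subunit genes and their processed pseudogenes, could have been split. Of 55481 rows, 55385 are mouse gene IDs. The other 96 (spike-ins and a few names that are no mouse gene ID, at most 2.23e-05% of a library) were left out. Symbols came from a gene ID table (55144 IDs matched), and positions, transcript lengths and exon overlaps from GENCODE M21 (GRCm38). Promoters came from RefSeq (GRCm38.p6).

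Low genes were removed by filterByExpr (at least 10 counts, 15 in total), libraries were scaled by TMM, and groups were compared in R 4.3.3 by quasi-likelihood in edgeR 4.0.16, with the group as the only term, all 6 libraries in 1 fit and Benjamini-Hochberg adjustment over 18504 genes (threshold 0.05). The fit was tested on simulated counts. Fold changes are overexpression over knockout, and a standard error is the log2 fold change divided by the root of F. Levels were compared between genes per length of the longest annotated transcript, which can hold retained introns. A count of 0 allows up to 3 counts, or 0.0759 to 0.101 CPM, for counting error only. Alternatives were RLE and upper-quartile scaling, mitochondrial genes left out of the scaling, no filter, robust dispersion, DESeq2 1.42.0, the replicate number as a block, scaling to keratinocyte markers or cytosolic ribosomal protein genes (on counts and medians only), union exon length and leaving out each library. No batch is in the labels.

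The members and lists were chosen with earlier results of these data known. Genes named are all 13 mitochondrial members, in each complex the 2 nuclear members with the smallest p-value in each direction past the threshold, the paralogue groups with Atpif1, Sox2, and in each pathway list the gene with the smallest p-value in each direction past the threshold. Any other was chosen after its values were seen. Of the named list genes, Rpl37 rose (log2 fold change 1.14) and Rps4l fell (-6.20) among the cytosolic ribosomal protein genes (edgeR, adjusted p = 0.00344 and 8.7e-06).

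Counting intervals are 95% exact (Clopper-Pearson). The smallest p that 3 libraries against 3 allow in an exact two-sided permutation test is 0.1, so no such test was run.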

Additional observations from a re-analysis of the deposited data

How the results depend on the processing

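The 3 nuclear members that fell were lower past the threshold under each of the 13 alternatives that apply to single genes. When 1 library was left out, the number of nuclear members that rose ran from 7 to 45, their median log2 fold change from 0.344 to 0.712, the mitochondrial genes that rose from 1 to 2, their median from 0.051 to 0.271, and the genes of the whole table that rose from 1446 to 2599. Scaled to keratinocyte markers, 0 nuclear members were higher and 25 lower (median -0.929), 0 mitochondrial genes were higher and 11 lower (median -1.291), and 239 genes of the whole table were higher and 13138 lower, so that higher genes went from 43.1% to 1.79% of calls. Scaled to cytosolic ribosomal protein genes, the same values were 1 and 9 (-0.149), 0 and 2 (-0.476), and 445 and 6211 (6.69% of calls). The mitochondrial count of risers was 2 in place of 1 with no filter, with DESeq2, with the replicate block and with the length trend removed, and their median was 0.098 with upper-quartile scaling and 0.038 with the length trend removed (0.159 as reported). Why these values moved was not tested, beyond the fewer samples in the fits that left out a library. With union exon length, mitochondrial over nuclear levels were 5.98 with knockout and 4.84 with overexpression, against 4.21 and 3.42. The fitted change of mt-Nd2 turned to 0.138 and 0.001, and that of mt-Cytb to 0.068 and 0.045, without knockout replicate 2 and overexpression replicate 2 (ranges with 1 library left out: -0.176 to 0.138 and -0.172 to 0.068).

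Same-numbered libraries did not deviate together across genes (correlations 0.0528, 0.0562 and -0.0474), so the numbers were not taken to pair them. With the replicate block 39 nuclear members rose and 3 fell, and 13.1% of all genes rose and 17.2% fell, against 13.6% and 18.0%. Not every library deviated most like its own number, since knockout replicate 2 had 0.0733 with overexpression replicate 3. Over the 46 named genes and their alternatives, 536 values kept the direction and the side of the threshold, 51 lost the call, 7 gained it and 4 changed sign. Over the 13 alternatives that apply to single genes, the risers numbered 7 to 22 in complex I (16 as reported), 0 to 2 in II (1), 0 to 7 in III (6), 0 to 8 in IV (6), 0 to 9 in V (6), 5 to 9 of the assembly factors (8), 2 to 35 of the mitochondrial ribosomal proteins (18) and 14 to 69 of the cytosolic ones (50).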
